A study of Rattus norvegicus with 16 samples.

Results

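Voltage-gated sodium, calcium and potassium channels and the other potassium channels of the rat were followed through pineal gland and retina. Members were the array probe sets whose annotation gives a single gene symbol that begins with Kcn, with Scn and a digit, or with Cacn, and 125 of 8799 probe sets met this rule. They stand for 78 of the 4736 genes named on the array, 33 of which have more than 1 probe set. By class there were 41 probe sets for voltage-gated potassium pore subunits and 6 for their auxiliary subunits, 22 for inward rectifiers, 4 for two-pore-domain channels and 9 for calcium- or sodium-activated potassium channels. Sodium channels had 16 probe sets for pore subunits and 1 for a beta subunit, and voltage-gated calcium channels had 19 for pore subunits and 7 for auxiliary subunits.

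Total RNA of Rattus norvegicus was hybridised to 16 arrays, 4 of pineal gland and 12 of retina. The pineal gland had 1 array and the retina 3 arrays for each of CT12, CT6, ZT12 and ZT6, where the number is the hour. Circadian time (CT) conventionally counts hours of the internal clock and Zeitgeber time (ZT) hours from lights on, but the labels describe neither the lighting nor the strain, sex or age of the animals. Nothing in the labels says that the numbered arrays are separate animals, so p-values measure only the spread between these samples, which may be technical.

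Channel proteins of these families open in the membrane to let 1 kind of ion pass. Voltage-gated sodium channels start the action potential, voltage-gated potassium channels end it and set its shape, and voltage-gated calcium channels couple it to transmitter release and gene regulation. Inward rectifier and two-pore-domain potassium channels hold the resting potential, and auxiliary subunits set how many channels reach the membrane and how fast they open and close. In the retina these channels carry the graded signals of photoreceptors and bipolar cells and the spikes of ganglion cells. In the pineal gland, membrane potential and calcium entry act on the adrenergic signal that drives melatonin synthesis.

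Values are given as log2 of the intensity plus 16 after quantile normalization, and a difference of 1 on this scale is a doubling. Adding 16 understates the change of dim probe sets, and precision is limited by how many arrays there are. Probe sets were tested where their mean reached the 40th percentile, and a probe set passed when its adjusted p in limma was under 0.05. The retina array labelled CT12 array 1 stood apart: its median Spearman correlation with the other retina arrays was 0.837, against 0.944 to 0.962 for the other 11. It carried the lowest summed intensity of the 6 rod markers on the array, 32935 against 266765 to 523752 on the other retina arrays, and of the 7 ganglion cell markers, 4405 against 49415 to 79646. The 12 lens markers on the array reached their highest sum there, 1941550 against 52925 to 1896950, and the 7 smooth muscle and pericyte markers theirs, 25668 against 1896 to 9100. The skeletal muscle markers, 12 of 15 listed, had their highest sum on another CT12 array, 58328, against 11928 on CT12 array 1. On the ZT6, ZT12 and CT6 retina arrays this sum was 7502 to 11066. The tissue titles go with the sum of the pineal marker genes: 6 of 9 listed genes were on the array and summed to 55481 to 73697 on the pineal arrays, against 740 to 4066 on the retina arrays. Of the 3 that were tested, 2 were higher in pineal gland and 1, Adrb1, was lower, at a difference of -3.57 ± 0.39. The pineal mean of Adrb1 (6.53) was under the 40th percentile level, so it could only be called lower. For Asmt, a higher gene, the retina mean (8.59) was under it, so it could only be called higher. Against their titles, all 4 pineal arrays carry a source name that reads retina. The source name begins with brain on 5 arrays, the pineal ZT12 array and the 4 retina arrays numbered 3, and with eye on 11.

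Pineal gland differed from retina at 39 of 61 tested channel probe sets, which stand for 35 genes, 18 probe sets higher and 21 lower. Of all 5244 tested probe sets 75.8% passed, 39.4% higher and 36.4% lower, so the channels' 63.9% was no larger than the background. The median difference of the channel probe sets was 0.03 log2 units, beside 0.09 for all tested probe sets, and the median size of a difference was 0.89, beside 1.07. The 4 pineal arrays lay wholly above or below the 12 retina arrays at 16 of the 61 probe sets, where 51.6% of all tested probe sets did so. Without CT12 array 1, 44 of 61 passed, 18 higher and 26 lower, beside 80.9% of all, 42.2% higher and 38.7% lower, and 28 of 61 did not overlap, beside 60.8%. The filter, at a mean of 8.82, used all 16 arrays. The higher probe sets of Scn7a, Kcnd2, Cacna1h, Cacna1e and Kcnj11 (D86039_g_at), 5 of 61, had a retina mean under it. They entered the test only through their pineal values, so they could only be called higher. A pineal mean under it was found at 16 of 61, all lower, which entered only through their retina values. Among them were Kcnh2 (Z96106_at), Cacna1a (AF051526_at), Cacna1b (M92905_s_at), Kcnd3 (rc_AI230211_s_at), Kcnj10 (X83585cds_s_at), Kcnma1 (AF083341_s_at), Scn1a, Scn2a, Kcnj5 and Kcnab1. The rest were Kcna1, Kcna5, Kcna6, Kcnc1 and both Kcnc2 probe sets. The adjusted p of all these probe sets is no support for their direction, and the counts above are a description. In whole tissue, fewer cells of a type and less RNA per cell cannot be told apart.

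Cell type markers differed along with the channels. The rod markers summed to 87509 to 117068 on the pineal arrays, the ganglion cell markers to 11116 to 15410, and the inner retina neuron markers, 10 of 12 listed, to 15015 to 16937. On the retina arrays without CT12 array 1 these sums were at least 266765, 49415 and 66333. Gene by gene, 4 of 6 rod, 5 of 7 ganglion cell and 8 of 10 inner retina neuron markers were lower in pineal gland. In each list 1 was higher, Gnb1 by 2.01, Gap43 by 1.72 and Calb1 by 1.58. Pdc (-0.21), Nefh (-0.07) and Gad2 (-0.93) did not pass. The lens markers, 12 of 15 listed, summed to 16181 to 20183 on the pineal arrays, below every retina array, with 10 of 12 tested genes lower and a median difference of -6.02. The Muller glia markers, 6 of 8 listed, were lower at 5 of 6 with a median of -1.57, but their sum was 252133 to 287223 on the pineal arrays and 147973 to 202266 on the retina arrays. The blood markers, 4 of 7 listed, summed to 44471 to 267401 on the pineal arrays and 23502 to 116195 on the retina arrays. The pineal means of Nefm, Sncg, Map1b, Prkca, Gad1, Slc32a1, Aqp4, Cryba1, Cryba4, Crybb1 and Crygc were under the filter. These could therefore only be called lower, and the marker counts are a description. No marker was listed at 0, and the share of these cells in the channel differences was not tested.

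**Figure D1:**
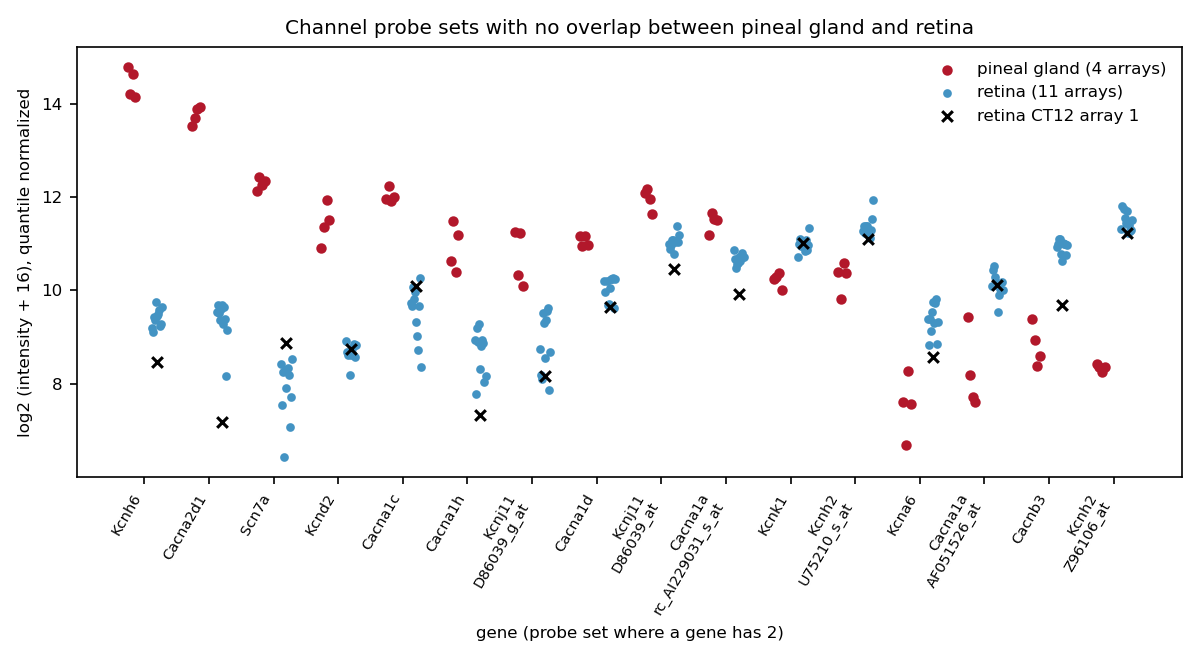
Levels of the channel probe sets whose pineal arrays (red, left of each pair) do not overlap the retina arrays (blue, right, with CT12 array 1 as a black cross). The y axis is log2 of the intensity plus 16 after quantile normalization. Kcnh6 stands at 14.15 to 14.79 on the pineal arrays and at 8.47 to 9.74 on the retina arrays, the widest gap among the genes that were higher, and Kcnh2 (Z96106_at, far right) at 8.24 to 8.43 on the pineal arrays and 11.23 to 11.81 on the retina arrays, the widest among those that were lower.

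The bases just before the starts of 5 channel genes are printed because these genes carry the tissue difference in both directions, or hold the motif that was found. The sequences are the 250 bases before the start in RefSeq (build GRCr8), 5′ to 3′ on the gene's strand. Kcnh6 at chr10:91449401-91449650 (plus strand) and Scn7a at chr3:71846285-71846534 (minus strand) were higher in pineal gland, and Cacnb3 at chr7:131666301-131666550 (plus strand) and Kcna6 at chr4:161262353-161262602 (minus strand) were lower. Kcnh4 at chr10:86188477-86188726 (minus strand) holds an E-box, CACGTG, shown in capitals.
Kcnh6: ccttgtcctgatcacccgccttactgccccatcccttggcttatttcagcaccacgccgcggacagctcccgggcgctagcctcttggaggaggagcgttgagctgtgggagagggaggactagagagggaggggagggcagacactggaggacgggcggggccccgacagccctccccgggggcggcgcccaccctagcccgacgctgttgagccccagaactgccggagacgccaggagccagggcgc
Scn7a: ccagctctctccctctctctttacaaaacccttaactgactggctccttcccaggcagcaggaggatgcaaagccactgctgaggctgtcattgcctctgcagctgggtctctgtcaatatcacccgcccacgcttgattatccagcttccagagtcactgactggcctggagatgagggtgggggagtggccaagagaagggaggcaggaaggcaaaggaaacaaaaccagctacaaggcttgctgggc
Cacnb3: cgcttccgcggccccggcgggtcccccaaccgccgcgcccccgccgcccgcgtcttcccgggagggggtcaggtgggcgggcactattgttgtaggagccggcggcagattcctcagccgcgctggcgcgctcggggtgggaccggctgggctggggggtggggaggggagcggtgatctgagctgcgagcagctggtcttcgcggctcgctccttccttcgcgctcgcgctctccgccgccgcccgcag
Kcna6: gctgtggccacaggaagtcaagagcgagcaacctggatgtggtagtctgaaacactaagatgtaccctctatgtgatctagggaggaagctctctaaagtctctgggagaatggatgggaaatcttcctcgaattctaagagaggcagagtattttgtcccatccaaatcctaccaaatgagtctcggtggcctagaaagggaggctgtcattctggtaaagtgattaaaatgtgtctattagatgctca
Kcnh4: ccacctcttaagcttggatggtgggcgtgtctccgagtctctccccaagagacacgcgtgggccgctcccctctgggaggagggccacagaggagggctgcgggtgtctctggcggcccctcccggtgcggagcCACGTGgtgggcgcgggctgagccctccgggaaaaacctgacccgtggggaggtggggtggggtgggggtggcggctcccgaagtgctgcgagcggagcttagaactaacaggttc
Their share of G and C was 69.6% for Kcnh6, 56.0% for Scn7a, 76.4% for Cacnb3, 45.6% for Kcna6 and 68.8% for Kcnh4. Of the 78 genes, 58 had an entry, with 65 promoters in all, and 3 short motifs were searched on both strands. The letters TAATCC, the core bound by the photoreceptor and pineal factor Crx, stood in 1 of the 65 promoters, that of Kcnj9, and in 6.34% of all 33469. The cyclic AMP response element TGACGTCA stood in none of the 65 and in 1.59% of all, and the E-box CACGTG in 1 of the 65, Kcnh4, and in 5.59% of all. The Kcnh4 match begins 116 bases before the start. A match or its lack describes these letters in this window only.

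Potassium channels of the ether-a-go-go group (Kcnh) held large differences in both directions without overlap. Kcnh6, a pore subunit of the ERG type, was at 14.79, 14.21, 14.62 and 14.15 on the ZT6, ZT12, CT6 and CT12 pineal arrays, against 8.47 at the lowest, 9.40 at the median and 9.74 at the highest of the 12 retina arrays. All pineal arrays lay far above all retina arrays. The difference was 5.11 ± 0.19 (SE) log2 units, a 34.5-fold higher level (95% interval 26 to 45.7), with an adjusted p of 1.81e-11. Kcnh2, the ERG channel whose human form repolarises the heart, went the other way. Its probe set Z96106_at was at 8.43, 8.36, 8.24 and 8.36 on the pineal arrays, against a lowest value of 11.23, a median of 11.43 and a highest of 11.81 on the retina arrays. It fell by 3.11 ± 0.11 (adjusted p = 1.48e-11), an 8.62-fold lower level (7.29 to 10.2). Its pineal mean of 8.35 was under the filter, so this probe set could only be called lower. The other Kcnh2 probe set, U75210_s_at, was also without overlap and lower, at 9.82 to 10.58 against 11.10 to 11.93, with a difference of -1.05 ± 0.15.

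Among the other Kcnh genes the differences were small. Kcnh7, the third ERG gene, rose by 0.67 ± 0.22, and Kcnh4, an ELK gene, by 0.37 ± 0.13, both with overlapping arrays. On the values as deposited, Kcnh7 was at 0.16 and no longer passed, and Kcnh4 was at -0.13. Kcnh7 also lost its call without the pineal CT12 array (0.55), and Kcnh4 without the pineal CT6 or CT12 array (0.28 and 0.33). Kcnh1 (EAG), Kcnh3, Kcnh5 and the tested Kcnh8 probe set did not pass, with differences of -0.14 to 0.30. Of the 9 tested Kcnh probe sets 3 were higher, 2 lower and 4 did not pass.

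The delayed rectifier families Kv1 and Kv3 had calls in 1 direction. Every called probe set of both families had a pineal mean under the filter, so it could only be called lower. Kv1 (Kcna) channels keep axons from firing repeatedly, and 3 of 4 tested probe sets were lower in pineal gland and none higher. Kcna6 was at 7.61, 6.69, 8.28 and 7.56 on the pineal arrays, against 8.58 to 9.81 with a median of 9.36 on the retina arrays, all of them above the pineal gland. The difference was -1.77 ± 0.23 (adjusted p = 7.28e-06). Kcna5 fell by 3.14 ± 0.46, with 7.60 to 8.29 on the pineal arrays and 10.94 to 11.74 on 11 retina arrays. Its CT12 array 1 value of 8.07 overlapped the pineal gland, and without this array the difference was -3.43 ± 0.14. Kcna1 fell by 0.99 ± 0.38, a call that was lost without the pineal ZT6, ZT12 or CT6 array (adjusted p = 0.101, 0.222 and 0.0586). Its difference without the pineal CT12 array was -1.58. Kcna4, an A-type member, did not pass at -0.13 ± 0.17.

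Kv3 (Kcnc) channels close fast enough for rapid firing, and 3 of their 4 tested probe sets were lower and none higher. Kcnc1 was at 8.31, 8.93, 8.0 and 8.85 on the pineal arrays and at 9.91 to 10.92 on 11 retina arrays, with 7.22 on CT12 array 1. Its difference was -1.71 ± 0.46, and -1.98 ± 0.18 without that array. The Kcnc2 probe sets were lower, with differences of -1.08 ± 0.26 (X62839mRNA_s_at) and -0.89 ± 0.33 (M84203_s_at). The second lost its call without the pineal ZT12, CT6 or CT12 array (adjusted p = 0.0614, 0.0514 and 0.0925). Kcnc4 did not pass, at 0.27 ± 0.33. On the values as deposited the Kv1 calls were 4 of 4 lower, and the counts were otherwise the same under both other scalings.

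The A-type Kv4 (Kcnd) genes, which carry a transient current below the firing threshold, split between genes. Kcnd2 (S64320_at) was at 10.90, 11.35, 11.93 and 11.51 on the pineal arrays, against a retinal range of 8.18 to 8.91 with a median of 8.68. Every pineal array exceeded every retina array, and the difference was 2.75 ± 0.15, a 6.72-fold higher level (5.4 to 8.38; adjusted p = 7.18e-10). The retina mean of 8.67 was under the filter, so this probe set could only be called higher. A dimmer Kcnd2 probe set, M59980_s_at, was below the filter. In the fit without a filter it stood at 9.80 to 11.14 in pineal gland and 6.34 to 8.46 in retina, a difference of 2.88 ± 0.37. Kcnd3 was lower at a difference of -2.30 ± 0.70 at rc_AI230211_s_at, whereas U92897_s_at did not pass at 0.74 ± 0.44. The lower Kcnd3 call was lost without the pineal ZT6 array (-1.87, adjusted p = 0.0522) and stood at -2.71 ± 0.29 without CT12 array 1 and at -3.17 without the pineal CT12 array. Kcnq3, an M-current subunit, was higher by 0.40 ± 0.16, but on the values as deposited it was at -0.10, and it no longer passed without any 1 of the pineal arrays (adjusted p = 0.0528 to 0.127), nor without retina ZT6 array 2, ZT12 array 1 or 3, or CT12 array 2 or 3 (0.0522 to 0.0542). In all, 5 of the 21 tested voltage-gated potassium pore probe sets were higher, 9 were lower and 7 did not pass.

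Among the auxiliary subunits of voltage-gated potassium channels, 1 of 3 tested probe sets passed. Kcnab1, a cytoplasmic beta subunit that speeds inactivation of Kv1 channels, was at 6.47, 6.20, 7.45 and 7.65 on the pineal arrays. The retina arrays had a median of 10.80 and ran from 10.11 to 11.27 on 11 arrays, with 7.38 on CT12 array 1. The difference was -3.61 ± 0.55, or -3.93 ± 0.27 without that array. Both Kcnab2 probe sets did not pass, at -0.12 and 0.36.

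Inward rectifiers included 4 higher and 3 lower probe sets among 9 tested. The counts were 2 higher and 4 lower on the values as deposited, and 4 higher and 2 lower with a common median. Kcnj11, the pore of the ATP-sensitive potassium channel, was higher at both probe sets. D86039_g_at was at 11.25, 10.34, 11.24 and 10.10 on the pineal arrays, against 7.86 to 9.63 with a median of 8.71 on the retina arrays, without overlap and by 1.93 ± 0.25 (adjusted p = 6.74e-06). Its retina mean of 8.80 was under the filter, so it could only be called higher. D86039_at was at 11.64 to 12.18, against 10.46 to 11.38, a difference of 0.97 ± 0.14. Kcnj15 was higher by 0.96 ± 0.38, a call lost without the pineal ZT12 or CT6 array (0.59 and 0.70). It was also lost on the values as deposited (0.52, adjusted p = 0.239). Kcnj1, known from the kidney, was higher by 0.64 ± 0.27 at S78154_at and by 0.05 ± 0.18, not passing, at AF081365_s_at. The first lost its call without the pineal ZT6 or CT12 array (0.73 and 0.23) and without retina ZT6 array 1 or 2, ZT12 array 2, CT6 array 3 or CT12 array 2 (0.60 to 0.64). On the values as deposited it was at 0.13 and did not pass (adjusted p = 0.692). It was at -0.22 when only the arrays with a brain source name were compared, 1 pineal against 4 retina arrays with no test, the 1 called probe set of 39 with another sign there.

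On the lower side, Kcnj10, the potassium channel through which Muller glia clear potassium, was at 9.48, 7.62, 8.19 and 6.24 on the pineal arrays, against 8.85 to 9.69 on the retina arrays (X83585cds_s_at). The difference was -1.54 ± 0.36 with overlapping arrays, and it moved to -0.95 without the pineal CT12 array and to -2.13 without the pineal ZT6 array. The Muller glia markers were lower at 5 of 6 as well, and their part in the Kcnj10 value was not tested. Kcnj5, a G protein-gated rectifier, fell by 1.29 ± 0.19. Kcnj14 stood at 11.58 to 11.96 in pineal gland and at 12.99 to 13.96 on 11 retina arrays, with 9.90 on CT12 array 1. Its difference of -1.34 ± 0.50 had an adjusted p of 0.0266, and of 0.0531, 0.105 and 0.0905 without the pineal ZT6, ZT12 or CT6 array, but it was -1.63 ± 0.17 (adjusted p = 7.0e-07) without CT12 array 1. With a common median it did not pass (-0.91, adjusted p = 0.0880). Nor did it with only the arrays whose source name reads eye (-0.96, adjusted p = 0.219). The only two-pore-domain probe set tested, Kcnk1, which carries a background leak, was at 10.02 to 10.37 in pineal gland against 10.72 to 11.34 in retina. It did not overlap and fell by 0.76 ± 0.12.

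BK channels, opened by calcium and voltage, are built from the pore Kcnma1 with beta subunits such as Kcnmb1, which is known from smooth muscle. Kcnma1 was lower at AF083341_s_at, 6.66 to 8.87 against 9.55 to 10.54 on 11 retina arrays and 7.63 on CT12 array 1, a difference of -2.12 ± 0.39, and -2.30 ± 0.29 without that array. The other probe set, U93052_s_at, did not pass at -0.67 ± 0.46 and passed without CT12 array 1. Kcnmb1 (AF020712_at) was higher, at 11.23 to 11.48 against 10.02 to 10.82 on 11 retina arrays, by 0.92 ± 0.19, or 1.01 ± 0.12 without CT12 array 1. Its highest retina value, 11.47, was on CT12 array 1, where the smooth muscle markers were also highest, and the part of such cells was not tested. The dimmer Kcnmb1 probe set, AB010963_s_at, was below the filter, and without a filter it differed in the opposite direction, by -1.32 ± 0.26, at 7.22 to 7.97 in pineal gland against 7.84 to 9.91 in retina. Kcnn1, a pore of the separate small-conductance calcium-opened channels, did not pass at 0.03 ± 0.21.

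Sodium channel pore subunits had 1 higher and 2 lower probe sets among 8 tested, and 5 did not pass. Scn7a, an atypical sodium channel that senses extracellular sodium in the brain, was high in pineal gland. At rc_AA925248_at it was at 12.13, 12.43, 12.26 and 12.34 on the pineal arrays, against 6.42 at the lowest, 8.22 at the median and 8.87 at the highest of the retina arrays. The pineal values lay close together and far above the retina, a difference of 4.33 ± 0.34, or 20.1-fold (12.2 to 33.2; adjusted p = 3.41e-08). The retina mean of 7.96 was under the filter, so this probe set could only be called higher. The second Scn7a probe set, S75991_at, did not pass at 0.31 ± 0.22, so the gene's probe sets disagree.

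Scn1a, the pore of a sodium channel of central neurons, went the other way. It was at 7.17, 7.53, 5.17 and 5.45 on the pineal arrays and at 9.83 to 11.48 on 11 retina arrays, with 6.97 on CT12 array 1. The difference was -3.91 ± 0.58, a 15-fold lower level (6.36 to 35.6), which moved to -3.30 without the pineal CT6 array and to -4.19 ± 0.42 without CT12 array 1. The pineal values were dim, and with an offset of 64 the difference was -3.24. Scn2a fell by 1.34 ± 0.28, with a difference of -1.46 ± 0.22 without CT12 array 1. Scn3a, Scn4a and both Scn8a probe sets did not pass, with differences of -0.37 to 0.41. Without CT12 array 1, Scn3a and the Scn8a probe set L39018_at also passed as lower. Scn2b, the only sodium beta subunit on the array, was below the filter, and without a filter it was at 5.25 to 5.93 in pineal gland against 6.12 to 9.49 in retina (difference -2.90 ± 0.39).

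Calcium channel pore subunits were higher at 5 of 9 tested probe sets, lower at 2 and not past the test at 2. Both tested L-type genes were higher without overlap. Cacna1c, the L-type pore of heart and smooth muscle, was at 11.97, 12.24, 11.91 and 12.0 on the pineal arrays, against 8.37 to 10.27 with a median of 9.70 on the retina arrays. The difference was 2.47 ± 0.29, a 5.53-fold higher level (3.61 to 8.48; adjusted p = 2.40e-06). Cacna1d, the L-type pore that opens at more negative potentials, was at 10.94 to 11.17 against 9.61 to 10.26, a difference of 1.05 ± 0.13. Cacna1h, a T-type pore for low-threshold calcium entry, was at 10.63, 11.49, 10.40 and 11.18 against 7.32 to 9.28, higher by 2.38 ± 0.30 (adjusted p = 5.20e-06). Its retina mean of 8.54 was under the filter, so it could only be called higher. The other T-type gene tested, Cacna1g, did not pass at 0.18 ± 0.26.

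The presynaptic calcium channels were mixed. Cacna1b, the N-type pore, was lower at a difference of -1.59 ± 0.32 at M92905_s_at (-1.75 ± 0.22 without CT12 array 1), and its other probe set did not pass at -0.38 ± 0.21. Cacna1e, the R-type pore, was higher by 0.78 ± 0.25, and did not pass on the values as deposited (0.28, adjusted p = 0.297). Cacna1a, the P/Q-type pore, was called in both directions. AF051526_at was at 9.43, 8.19, 7.72 and 7.61 on the pineal arrays, against 9.54 to 10.53 on the retina arrays, without overlap, a difference of -1.88 ± 0.19 (adjusted p = 6.58e-07). Its pineal mean of 8.24 was under the filter, so it could only be called lower. The probe set rc_AI229031_s_at was at 11.19 to 11.65 against 9.93 to 10.86, also without overlap, a difference of 0.85 ± 0.15 (adjusted p = 0.000124). No direction can be given for this gene.

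Auxiliary subunits of calcium channels held the second largest difference of all tested channels. Cacna2d1, the alpha-2-delta subunit that raises the number of channels at the surface and is bound by gabapentin, was at 13.53, 13.69, 13.89 and 13.93 on the pineal arrays. On the retina arrays it was at 8.16 to 9.69 on 11 arrays and at 7.17 on CT12 array 1, below every pineal value. The difference was 4.58 ± 0.31, a 23.8-fold higher level (15.1 to 37.6; adjusted p = 6.92e-09), and 4.43 ± 0.20 without that array. Beta subunits, which bring the pore to the membrane, were lower at 2 and higher at 1 of 4 tested probe sets. Cacnb3 was at 9.39, 8.94, 8.39 and 8.59 on the pineal arrays, against 9.68 to 11.11 with a median of 10.97, no array overlapping, and it fell by 2.00 ± 0.21 (adjusted p = 6.94e-07). Without CT12 array 1 the difference was -2.10 ± 0.14. Cacnb2 (M80545_at) fell by 1.58 ± 0.45, a difference that stood at -0.80 without the pineal ZT12 array, where it was at 7.83 against 10.08 to 10.93 on the other pineal arrays. Cacnb1 was higher by 0.50 ± 0.18, lost its call without the pineal ZT6 or CT6 array (0.47 and 0.46), and was at 0.05 on the values as deposited. Cacng1, the gamma subunit of skeletal muscle, did not pass at 0.46 ± 0.21.

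**Figure D2:**
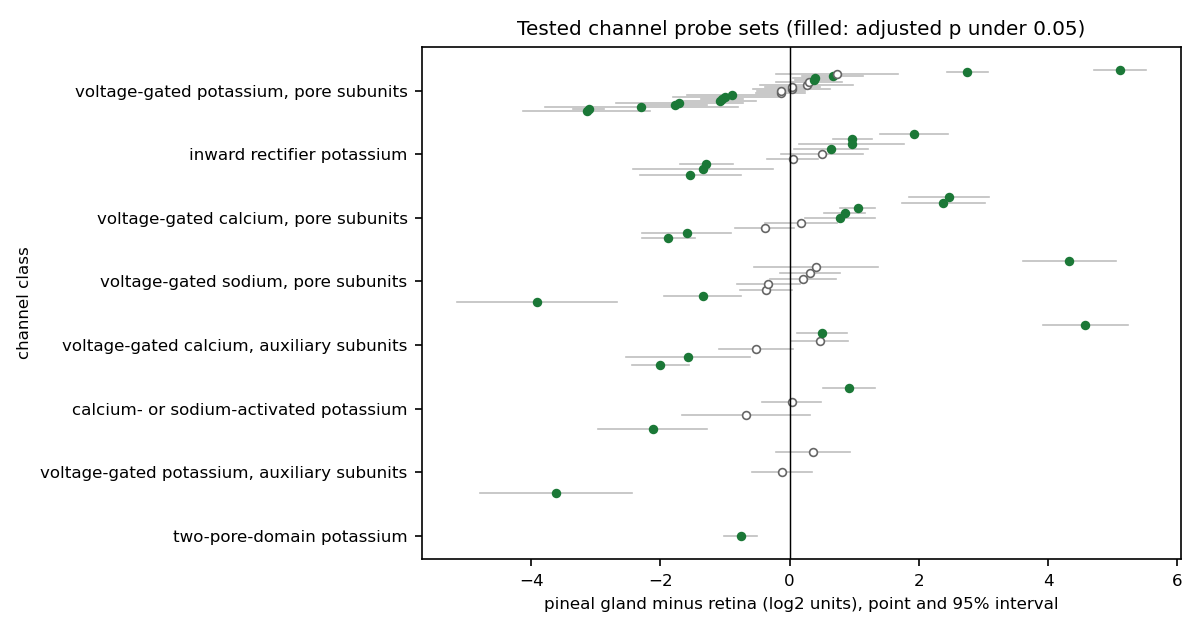
Pineal gland minus retina in log2 units for each of the 61 tested channel probe sets, by class, with 95% intervals. Filled points passed, open points did not, and differences of both signs stand in most classes, from -3.91 (Scn1a) to 5.11 (Kcnh6).

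Several probe sets of a gene could be set side by side for 12 genes. For 3 of them (Kcnc2, Kcnh2 and Kcnj11) all tested probe sets passed in the same direction. For 6 (Cacna1b, Cacnb2, Kcnd3, Kcnj1, Kcnma1 and Scn7a) 1 probe set passed and another did not, for Cacna1a the calls opposed each other, and for the other 2 none passed. The filter left out 64 probe sets, and 29 genes had none tested. Without a filter, 64 of all 125 members passed, 33 higher and 31 lower, which is 51.2% beside 61.1% of all 8740 probe sets, 34.5% higher and 26.5% lower. Of those below the filter, 17 were higher and 10 lower. The share of all probe sets below the filter is not given here, so these counts are not read as a trait of the channels. Members named next were all below the filter. Kcnj13, known from the retinal pigment epithelium, was higher by 1.70 ± 0.45. Kcnj10 at its second probe set U27558_at was lower at a difference of -2.17 ± 0.46, and Kcnab3, another Kv1 beta subunit, at -1.81 ± 0.34.

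Scaling moved the balance of the calls. The median difference of all tested probe sets was 0.09 after quantile normalization, -0.23 on the values as deposited and 0.28 with a common median. Of 61 tested, the channel calls were 11 higher and 27 lower on the values as deposited and 20 higher and 20 lower with a common median. The share of all probe sets called under these other scalings is not given here, so these counts have no background beside them. Under these scalings the sign turned for Kcnq3 and Kcnh4, both on the values as deposited. With the source name as a term in the fit, all 39 passed again. With only the arrays whose source name reads eye, 10 of the 37 called probe sets that were still tested no longer passed. Among those 10, Cacnb2 (M80545_at) was at -0.64 (adjusted p = 0.101) and Kcnd3 (rc_AI230211_s_at) at -1.64 (adjusted p = 0.164). Kcnab1 at -2.86 and Kcnma1 (AF083341_s_at) at -1.45 still passed.

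Genes of ion transport outside the rule were read from a list of 69 genes, 52 of them on the array and 35 tested. Of these 6 were higher and 15 lower in pineal gland. Itpr1, the calcium release channel of the endoplasmic reticulum, was higher by 4.76 ± 0.25, Slc12a2, the sodium-potassium-chloride cotransporter, by 2.36 ± 0.23, and Atp2a2, the calcium pump of the reticulum, by 1.86 ± 0.30. Abcc9, a sulfonylurea receptor that assembles with the Kcnj11 pore, was higher by 1.02 ± 0.25. Dpp6, an auxiliary subunit of Kv4 channels, was lower at a difference of -4.52 ± 0.22, in the gland where the Kv4 pore gene Kcnd2 was higher. Asic2, an acid-sensing sodium channel, was lower at a difference of -4.44 ± 0.25, the scaffold gene Dlg1 at -3.86 ± 0.41 and Atp1b2, a sodium pump subunit, at -2.96 ± 0.33. The pineal means of Dpp6 (5.89), Asic2 (7.19) and Dlg1 (7.09) were under the filter, so these could only be called lower. Their adjusted p is no support for that direction, and the counts of this list are a description.

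In the retina no channel probe set passed in any of the 6 comparisons of hour and regime, with 60 probe sets of 47 genes tested. The share of all 5244 probe sets that passed was 0.286% for ZT12 against ZT6, 0.0381% for CT12 against CT6, 0% for CT6 against ZT6 and 0.61% for CT12 against ZT12. It was 0.21% for hour 12 against hour 6 over both regimes and 0.0191% for the difference between the hour effects. At an unadjusted p under 0.05, in the same order, 3, 18, 5, 15, 9 and 12 channel probe sets were counted, beside 8.62%, 27.4%, 5.07%, 26.2%, 17.6% and 16% of all. As shares of the channels these are 5%, 30%, 8.33%, 25%, 15% and 20%. The values below, from the 12 retina arrays normalized together, therefore describe probe sets that did not pass.

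The 3 arrays of each group did not overlap at 10 of 60 channel probe sets for ZT12 against ZT6, where 25.4% of all did so, and at 15 for CT12 against CT6, beside 26.5%. For CT6 against ZT6 these were 12, beside 17.2%, and for CT12 against ZT12 14, beside 28.8%. Over both regimes the 6 arrays of hour 12 and the 6 of hour 6 were apart at 1 channel probe set, beside 1.53% of all.

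That probe set was S78154_at of Kcnj1. It was at 7.77, 8.34 and 9.06 on the CT12 arrays and 9.15, 8.79 and 9.40 on the ZT12 arrays, against 9.79, 9.77 and 9.60 on the CT6 arrays and 9.52, 9.66 and 9.92 on the ZT6 arrays. All 6 arrays of hour 12 were below all 6 of hour 6. The difference over both regimes was -0.96 ± 0.21 (adjusted p = 0.115), and -0.81 ± 0.16 without CT12 array 1, with an adjusted p of 0.0428 that passed, as did 1.3% of all probe sets. The other Kcnj1 probe set, AF081365_s_at, had a difference of 0.32 ± 0.17, of the opposite sign.

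Kcnmb1 had the smallest p of the ZT comparison. At AB010963_s_at it was at 7.94, 8.01 and 8.19 on the ZT12 arrays, against 9.50, 9.81 and 10.03 on the ZT6 arrays, without overlap. The difference was -1.74 ± 0.36 with an adjusted p of 0.113, and with the spread taken from 11 arrays, without CT12 array 1, it passed at 0.0150, as did 1.51% of all probe sets. Under CT the groups overlapped, at 8.11, 9.03 and 9.55 on the CT12 arrays and 8.88, 8.21 and 9.36 on the CT6 arrays. The test of the difference between the hour effects gave 1.81 ± 0.51 (adjusted p = 0.204). At the other Kcnmb1 probe set, AF020712_at, ZT12 minus ZT6 was -0.13 ± 0.26.

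Kcnj11 differed in size and sign between the regimes without passing. D86039_g_at was at 8.26, 7.96 and 8.78 on the CT12 arrays, against 9.48, 9.67 and 9.74 on the CT6 arrays, a difference of -1.30 ± 0.29 (adjusted p = 0.0983). On the ZT12 arrays it was at 9.63, 9.41 and 8.66, against 8.86, 8.28 and 8.20 on the ZT6 arrays, a difference of 0.79 ± 0.29 (adjusted p = 0.437). The hour effects differed by -2.09 ± 0.41 (adjusted p = 0.114), and by -2.06 ± 0.44 (0.0827) without CT12 array 1. At hour 6 the CT arrays were above the ZT arrays by 1.19 ± 0.29 (adjusted p = 0.805), and at hour 12 below them, at -0.90 ± 0.29.

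Other channel genes with the smallest p in a comparison had these values. For ZT12 against ZT6, Kcnj15 was at -1.23 ± 0.41 and Kcnh1 at 0.42 ± 0.27. For CT12 against CT6, Kcnj10 (U27558_at) was at -2.29 ± 0.64, with 5.77, 8.64 and 8.32 on the CT12 arrays against 9.85, 9.81 and 9.95 on the CT6 arrays, and at -1.40 ± 0.35 without CT12 array 1. Cacng1 was at 0.65 ± 0.29 there and Kcnh4 at 0.41 ± 0.19. The skeletal muscle marker sum was highest on a CT12 array other than array 1. The part of such cells in the Cacng1 values of comparisons with CT12 was not tested. For CT6 against ZT6, Kcnc2 (X62839mRNA_s_at) was at 0.66 ± 0.40, Kcnj10 (X83585cds_s_at) at 0.32 ± 0.20, Kcnh4 at -0.59 ± 0.19, Cacna1a (AF051526_at) at -0.52 ± 0.17 and Kcnj15 at -1.12 ± 0.41. The adjusted p of these values lay above the threshold.

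At hour 12 between regimes, Cacna2d1 was at 7.25, 8.27 and 9.25 on the CT12 arrays, against 9.48, 9.71 and 9.81 on the ZT12 arrays. All CT12 arrays were lower, the first most, and the difference of -1.41 ± 0.39 (adjusted p = 0.108) became -0.91 ± 0.25 without CT12 array 1. Cacnb2 (M80545_at) had -1.20 ± 0.40 and -0.63 ± 0.20 without that array. In the other direction, Kcnh8 had 0.88 ± 0.28, Cacng1 0.88 ± 0.29 and Kcnmb1 (AF020712_at) 0.62 ± 0.26. Over both regimes, Scn4a had 0.48 ± 0.22, Kcnh1 0.39 ± 0.19 and Cacna1d -0.35 ± 0.13 for hour 12 against hour 6. For the difference between the hour effects, Cacng1 had 1.16 ± 0.40, Kcnj15 1.65 ± 0.59, Kcnc2 (X62839mRNA_s_at) -1.62 ± 0.56 and Kcna6 -0.97 ± 0.37, none of which passed.

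Comparisons with the CT12 group showed a shift of the channels to lower values, which was smaller without CT12 array 1. The median difference of the channel probe sets was -0.47 for CT12 against CT6, beside -0.06 for all, and -0.42 for CT12 against ZT12, beside -0.02. Without this array the medians were -0.05 and -0.08. On it the channel probe sets lay at a median of -1.03 log2 units against the other 11 retina arrays, beside -0.04 for all probe sets, and 30 of 60 lay more than 1 unit below, 50% beside 20.1% of all. CT12 array 2 had a median of -0.15, beside -0.08 for all, with 6 such probe sets, 10% beside 2.23% of all. The other 10 arrays had medians of -0.08 to 0.13 for the channel probe sets. Within the CT12 group the median SD of the channel probe sets was 0.663, against 0.189 to 0.237 in the ZT12, CT6 and ZT6 groups (n = 3 each). Over all tested probe sets it was 0.413 in CT12, against 0.170 to 0.201. Without CT12 array 3 instead, which leaves arrays 1 and 2, 23 of 59 channel probe sets passed for CT12 against CT6, beside 24.9% of all, and 13 for CT12 against ZT12, beside 20.4%.

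**Figure D3:**
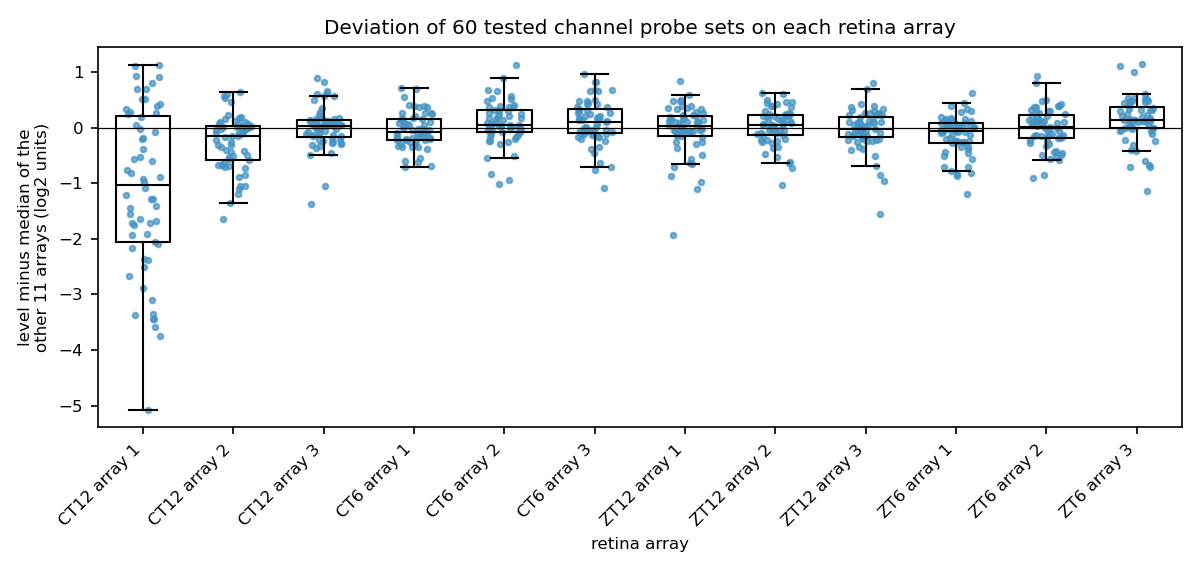
Deviation of the 60 tested channel probe sets on each retina array, as the level minus the median of the other 11 arrays in log2 units. Points are probe sets, boxes the quartiles and medians, and CT12 array 1 has a median of -1.03 while the other arrays lie between -0.15 and 0.13.

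Channels that were lower in pineal gland than in retina, and channels that did not pass between tissues, were often low on this retina array. In the values normalized with the pineal arrays, 14 of the 21 lower probe sets lay more than 1 unit below the other retina arrays, with a median of -1.70, against 4 of the 18 higher ones, with a median of -0.23. Of the 22 that did not pass, 12 lay more than 1 unit below, with a median of -1.15. Of all probe sets tested in the retina, 20.1% lay that far below, a share not split by tissue direction here. The split is therefore not read as a trait of the channels. The furthest below were Kcnd3 (rc_AI230211_s_at) at -4.98, Scn1a at -3.72, Kcnj14 at -3.52, Kcnab1 at -3.43, Kcnc1 at -3.42 and Kcna5 at -3.41, and the furthest above was Kcnmb1 (AF020712_at) at 1.17. The rod and ganglion cell marker sums were lowest on the same array and the smooth muscle and lens sums highest. Their part in these values was not tested.

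**Figure D4:**
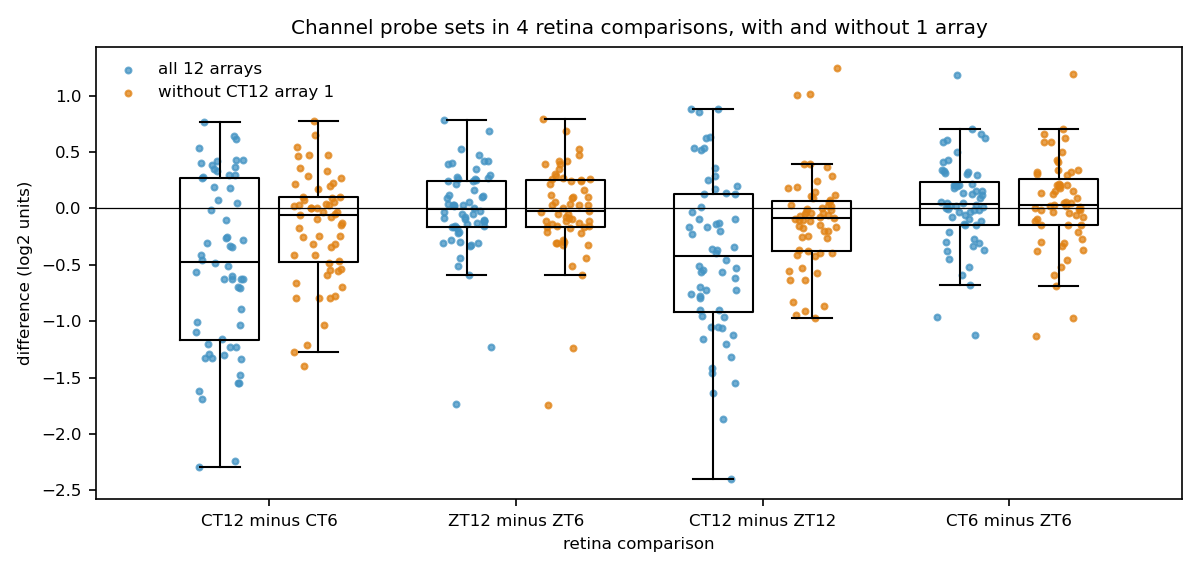
Differences of the tested channel probe sets in 4 retina comparisons, in log2 units, with all 12 retina arrays (blue) and without CT12 array 1 (orange). Boxes give quartiles and medians, and the medians of the comparisons with CT12 move to -0.05 and -0.08 without the array, while those of the other comparisons stay within 0.04 of 0.

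The pineal gland had 1 array per condition, so hours were compared there without a test, on the values as deposited, by a difference of at least 1 log2 unit in the same direction under both regimes. Of 53 channel probe sets (44 genes) past the filter, 1 was higher and 3 lower at hour 12, beside 2.56% of all 5244 probe sets in either direction. Kcnh1, the EAG potassium channel, was at 11.04 at ZT12 and 10.52 at CT12, against 9.13 at ZT6 and 9.17 at CT6, higher by 1.91 and 1.35. Both Cacnb2 probe sets, the calcium channel beta subunit, were lower. M80545_at was at 7.47 at ZT12 and 9.62 at CT12, against 10.48 at ZT6 and 10.64 at CT6, differences of -3.01 and -1.03. The second, rc_AA891260_at, was at 11.18 and 10.93, against 12.50 and 12.07, differences of -1.32 and -1.14. Kcnj11 (D86039_g_at) was at 9.93 and 9.64, against 11.01 and 11, differences of -1.08 and -1.36, but D86039_at had 0.07 and -0.52. Kcnh6, with its high pineal level, had -0.49 and -0.38. The array titled pineal ZT12 carries 6 h in its description, so its hour rests on the title.

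**Figure D5:**
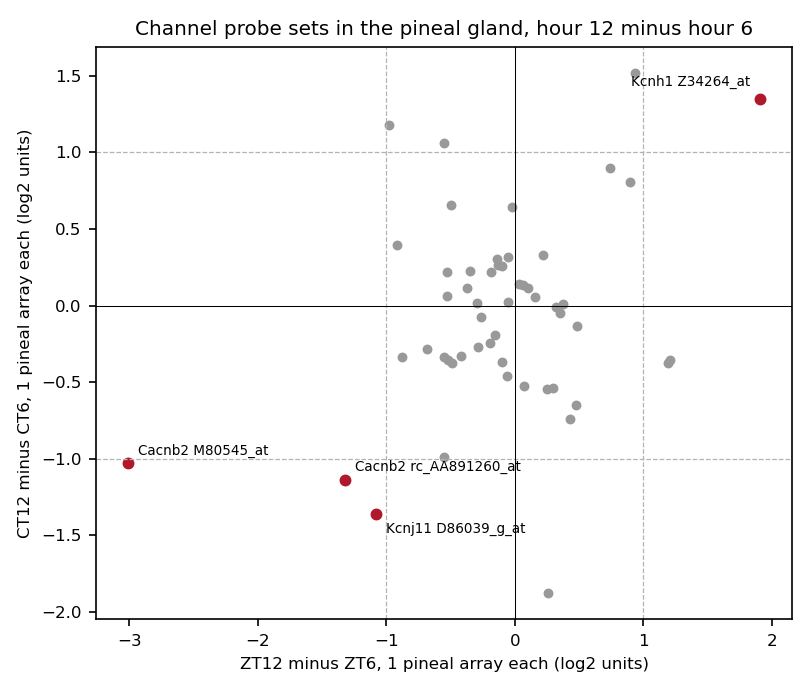
Hour 12 minus hour 6 in the pineal gland for 53 channel probe sets, ZT on the x axis and CT on the y axis, in log2 units with 1 array per condition. Dashed lines mark a difference of 1, and the 4 red points are past them in the same direction under both regimes: Kcnh1 at 1.91 and 1.35, Kcnj11 at -1.08 and -1.36, and Cacnb2 at -3.01 and -1.03 and at -1.32 and -1.14.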

How the data were processed

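Samples of total RNA, 4 of pineal gland and 12 of retina, were grouped by tissue, regime and hour from their titles. The authors deposited linear intensities for 8799 probe sets an array. How they were summarised and scaled is not given in the sources. Probe sets were named from the platform annotation, which can be old, and the Entrez gene of all 125 members was found in RefSeq. After 59 controls were left out, arrays were quantile normalized (12 retina arrays, or all 16 for tissue), 16 was added before log2, and the 40th percentile of the mean left 5244 of 8740 probe sets. Tests were two-sided, with lmFit and eBayes of limma 3.58.1 in R 4.3.3, adjusted by Benjamini and Hochberg over all tested probe sets at 0.05. The tissue fit held condition as a term (11 residual degrees of freedom), and a single fit of 4 groups gave the retina comparisons (8). Errors are standard errors. Python 3.11.15 made the summaries.

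Members and lists were chosen with earlier results of these data known. The rule names up to 15 genes in each direction that passed the tissue comparison without overlap, the 3 higher and 3 lower members with the smallest p in each retina comparison, members past 1 log2 unit in the pineal hours, and the 4 highest and 4 lowest of the other ion transport list. Other genes named for tissue, among them those that overlapped through 1 array, were chosen after their values were seen. In simulated data the retina test found 53 of 100 2-fold and 85 of 100 4-fold changes and made 6 false calls, and the tissue test found 72 and 92 and made 8. The simulated noise was independent, with the same spread in every group, and changes were placed in ZT12 or pineal gland only. These counts therefore do not cover an array that stands apart, as CT12 array 1 did.

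Settings also tried were an offset of 1 or 64, deposited scaling, equal medians, other filters (none or the 60th percentile), another prior, weighted arrays, tissue without condition, groups fitted alone, a replicate block and the omission of each array. Source name as a term, and the arrays with an eye source name alone, were added after the data were seen.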

Additional observations from a re-analysis of the deposited data

Results flagged for a closer look

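Among the 39 channel probe sets that passed between tissues, 2 had a single pineal array far from the other 3 in relation to their range, and chance alone marks about 1 in 20 groups. Kcnj15 (rc_AA893192_at) was at 8.57 on the pineal CT12 array, against 10.31 to 10.63 on the other pineal arrays. Kcnq3 (AF091247_s_at) was at 9.88 on the pineal CT6 array, against 10.17 to 10.22 on the others.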

How the results depend on the processing

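For the tissue comparison, 39 channel probe sets passed, 15 with a filter at the 60th percentile, where fewer were tested, 64 with no filter, and 32 to 44 with 1 array left out. Of all probe sets 75.8% passed in the main fit, 61.1% with no filter and 80.9% without CT12 array 1. For the other settings the share of all is not given, so those counts have no background beside them. Among the 39, the sign turned for Kcnh4 (-0.13) and Kcnq3 (-0.10) on the values as deposited, where 7 of the 39 no longer passed, and for Kcnj1 (S78154_at, -0.22) on the arrays with a brain source name. In the retina, 0 channel probe sets passed in each comparison with all arrays. With the 6 arrays compared alone, 1 of 58 passed for ZT12 against ZT6, beside 1.66% of all probe sets. With array weights 1, 30, 25, 13 and 20 passed for ZT12 against ZT6, CT12 against CT6, CT12 against ZT12, hour 12 against hour 6 and the difference between the hour effects, beside 5.32%, 48.1%, 49.0%, 27.3% and 26.1% of all probe sets. That fit did not converge and gave CT12 array 2 a weight of 48.4. Leaving out 1 array gave 0 to 1, 0 to 23, 0 to 13, 0 to 5 and 0 to 1 in the same order, and 0 for CT6 against ZT6. The higher ends came without CT12 array 3, except for ZT12 against ZT6, where the 1 came without CT12 array 1. The cause was not tested. In the pineal hours 4 members were past 1 log2 unit and 8 past 0.5, 15.1% beside 11.3% of all. With an offset of 64, 1 was higher and 2 lower by 1 unit, 5.66% beside 2.14% of all. After quantile normalization 2 were higher and 2 lower, 7.55% beside 2.38% of all. With array numbers as a replicate block, 0 channel probe sets passed in every retina comparison. Same-numbered arrays deviated with correlations of -0.41 to 0.41, and arrays of different numbers with -0.52 to 0.53. With so few arrays this cannot tell whether the numbers pair the samples. The retina arrays numbered 3 all share the brain source name. Brightness and the number of arrays limit what could be tested: 64 members were too dim.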

Other observations

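Dim channel probe sets, below the filter and compared in the fit without one, gave further values for pineal gland against retina. Kcne1, a single-pass subunit that slows a cardiac potassium channel, was higher at both probe sets, by 1.55 ± 0.31 (D10709exon_s_at) and 0.68 ± 0.15 (M22412_at). The electrically silent subunits Kcnv1 and Kcnf1, which alter other potassium channels without forming their own, were higher by 1.59 ± 0.45 and 1.13 ± 0.29. Of the 4 dim Cacna1d probe sets, M57682_at and U31772_s_at were higher, by 1.60 ± 0.43 and 1.00 ± 0.31. The others, M99221_s_at and U49126_s_at, did not pass, at 0.14 and -0.64 (adjusted p = 0.808 and 0.287 in limma). Scn3a (Y00766_at) had a difference of -2.94 ± 0.40, at 5.17 to 5.57 on the pineal arrays and 5.73 to 9.53 on the retina arrays, and Kcna3, a Kv1 pore known from lymphocytes, one of -1.45 ± 0.34.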
